A study of Rattus norvegicus with 3 samples.

Results

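The 8 genes described here make up the MHC class II pathway of antigen presentation as far as the array platform names it: the invariant chain Cd74, the class II chains RT1-Da, RT1-Ba, RT1-Bb and RT1-Db1, the peptide-loading chains RT1-DMa and RT1-DMb, and the transactivator Ciita. They were taken from 14217 measured genes by their symbols in the platform annotation, and the group itself was chosen by measured values of these arrays, because Cd74 had a bright signal while leukocyte markers did not. The signals of Cd74 and of the leukocyte markers are therefore given as a description and not as a test. The 8 genes were represented by 14 probe sets, and 0 probe sets of the platform named several class II genes at once. The annotation used gives no probe sequences. Whether a probe set also reads a related class II gene, such as RT1-Db2 for RT1-Db1, could therefore not be checked. The arrays measured the medullary thick ascending limb (mTAL), the kidney tubule segment of the outer medulla that reabsorbs sodium chloride and leaves water behind, in 3 samples of 1 group with no control tissue and no comparison treatment.

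All samples came from male Sprague-Dawley rats, an outbred stock, aged 7 to 8 weeks. Every rat had been injected with the loop diuretic furosemide (1 mg) and with heparin (250 u) 30 min before death. Its outer medulla had been perfused and digested with collagenase and hyaluronidase before the tubules were collected from a gradient of 33.3% Percoll, so all signals are those of enzymatically isolated tubules. The labels do not say whether a sample was 1 rat or a pool. The p-values below rest on how these 3 samples vary, and that variation may be only technical.

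Class II molecules are pairs of an alpha and a beta chain that carry peptides from the endosome to the cell surface, where CD4+ T cells read them. The invariant chain, encoded by Cd74, fills the peptide groove of newly made pairs and guides them to the endosome, where proteases cut it down to a short remnant that the DM pair then exchanges for peptide. The genes are switched on together by Ciita, which binds no DNA itself but joins a complex of RFX and NF-Y factors on paired promoter elements, the X box and the Y box. Dendritic cells, macrophages and B cells express the set constantly, while many other cells, tubule epithelium included, are known to acquire it under interferon-gamma.

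The promoter sequences of the members are shown first because they hold the paired elements through which the genes are known to be switched on together. RefSeq promoter windows (build GRCr8, 250 bases before to 50 after an annotated transcript start) were found for 6 of the 8 members. The search was for ACNGATG, the end of the X box, and for TGATTGG, the Y box, on both strands. Each sequence below is written 5′ to 3′ along the strand of the gene, with these letters in capitals.

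RT1-Da, GRCr8 chr20:4515324-4515378, plus strand: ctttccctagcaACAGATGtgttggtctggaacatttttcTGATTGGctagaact
RT1-Ba, GRCr8 chr20:4576972-4577026, plus strand: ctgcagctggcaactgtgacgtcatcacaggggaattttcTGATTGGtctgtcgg
RT1-Bb, GRCr8 chr20:4604167-4604221, minus strand: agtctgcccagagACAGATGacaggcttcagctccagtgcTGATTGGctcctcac
RT1-Db1, GRCr8 chr20:4560230-4560284, minus strand: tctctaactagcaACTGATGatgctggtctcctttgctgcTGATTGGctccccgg
RT1-DMa, GRCr8 chr20:4712387-4712441, minus strand: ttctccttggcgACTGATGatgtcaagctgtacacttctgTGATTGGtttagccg

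The Y box letters stood in 5 of the 6 member promoters and in 7.06% of all 33469 promoter windows, and the X box letters in 4 of 6 and in 10.2%. In RT1-Da, RT1-Bb, RT1-Db1 and RT1-DMa the X letters lay upstream of the Y letters on the gene's own strand. The space between them was 21, 20, 20 and 21 bases, in that order. An X then a Y with 10 to 30 bases between, on the same strand, occurred in 8 of the 33469 windows, or 0.0239%. Besides these 4 members they were the class II genes RT1-Db2 and RT1-DOb, which are not among the measured genes, and Hsd17b7 and Tdo2. Of these last, Hsd17b7 had signals of 974, 557 and 732 on replicates 1, 2 and 3, and Tdo2 of 38.0, 5.85 and 13.8. The motif letters and the spacing were set with the member promoters in view, so these shares describe the windows and are no test.

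The Cd74 window held neither set of letters, and holds ATTGG, the core of the Y box that TGATTGG also contains, only at 189 to 185 bases before the start and on the other strand. ATTGG stood in 37.5% of all windows. The last 120 bases before the Cd74 start are shown for comparison.

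Cd74, GRCr8 chr18:56527086-56527205, plus strand: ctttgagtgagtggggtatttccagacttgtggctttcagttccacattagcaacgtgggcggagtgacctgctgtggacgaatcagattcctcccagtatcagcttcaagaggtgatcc

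A match of letters is a description of the sequence, and a missing match says only that these letters are not in the window. In the order of the RefSeq assembly, RT1-Db1, RT1-Ba and RT1-Bb follow RT1-Da on chromosome 20 with only RT1-Db2 between RT1-Da and RT1-Db1. RT1-DMb and RT1-DMa come after a stretch of 5 genes, namely RT1-DOb and the class I peptide genes Tap2, Psmb8, Tap1 and Psmb9. Cd74 lies on another chromosome.

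**Figure D1:**
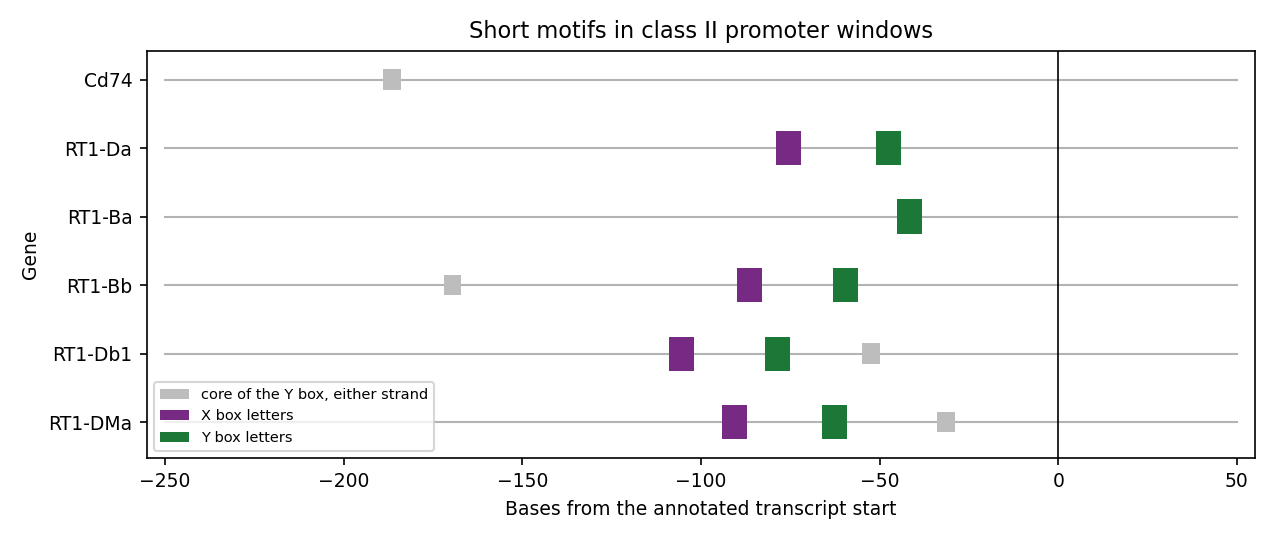
Positions of the X box letters (purple), the Y box letters (green) and the 5-letter core of the Y box on either strand (grey) in the promoter windows of 6 class II members; the x axis gives bases from the annotated transcript start, drawn as a vertical line at 0. In RT1-Da, RT1-Bb, RT1-Db1 and RT1-DMa the X letters precede the Y letters by 20 or 21 bases, RT1-Ba holds the Y letters, and Cd74 holds only the core, 189 bases before its start.

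Signals are probe set intensities on a linear scale, on which all arrays had the same mean once their lowest and highest 2% were left out. To say which genes stood above background, each array had a cutoff, the 95th percentile of its signals for 72 genes of other tissues such as pituitary and pancreas. The cutoffs of replicates 1, 2 and 3 were 404, 338 and 384. A gene was called when its log2 signal lay above these cutoffs with an adjusted p under 0.05 in limma, fitted over all genes. By this rule 53.7% of all genes were called. All 14 measured markers of the thick ascending limb were called, led by uromodulin (Umod, 57036 ± 8031; SD, n = 3 throughout), Egf (45193 ± 905) and the sodium-potassium-chloride cotransporter Slc12a1 (39427 ± 2562). Signals of different probe sets are not compared as amounts of transcript, because each hybridises with its own strength.

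Of the 8 class II genes 7 were called, all but Ciita. Because the group was chosen with these signals known, nothing is read from that share beside the 53.7% of all genes. By probe sets, 10 of the 14 stood above the cutoff on every array and 4 below it on every array, against 48.0% above it among all probe sets of a single gene. The median of the 8 genes lay 3.86 ± 0.51 log2 units above the array median, where the median of all genes lay at 1.32 ± 0.07.

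Cd74 had signals of 23219, 25140 and 27671 on replicates 1, 2 and 3. That is a mean of 25343 ± 2233, which placed its probe set at percentile 99.2, 99.3 and 99.5 of the arrays. Among all genes its signal ranked 140th. The arrays differed little in it, since the highest signal was 1.19 times the lowest, and its SD of 0.13 log2 units was close to the median of 0.15 over all called genes. Its signal was 57.4, 74.3 and 72.0 times the cutoff of the 3 arrays, and with any 1 array left out its mean lay between 24180 and 26406.

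The alpha chains form one side of the peptide groove. RT1-Da, the alpha chain of the rat molecule akin to human HLA-DR, had signals of 10641, 10268 and 11577, a mean of 10829 ± 674, with all arrays at percentile 97.6 to 97.9. RT1-Ba, the alpha chain of the molecule akin to HLA-DQ, had 4 probe sets with unlike signals. The probe set 1370822_at gave 5214, 3183 and 4545, and 1377334_at gave 2270, 3867 and 4785. The former was lowest on replicate 2 and the latter on replicate 1. The other 2 stayed below the cutoff on every array, with 81.0, 86.5 and 156 for 1381593_x_at and 95.6, 238 and 236 for 1392334_at.

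The beta chains, which carry most of the known polymorphism of class II molecules, were above the cutoff with both of their probe sets. RT1-Bb, the partner of RT1-Ba, had signals of 5030, 2207 and 3561 with 1371033_at and of 1021, 1292 and 1975 with 1371065_at. RT1-Db1, the partner of RT1-Da, had 2881, 2548 and 3457 with 1370383_s_at and 1325, 589 and 1084 with 1370382_at. The signals of replicates 1 and 2 differed by 2.28-fold in the first RT1-Bb probe set and by 2.25-fold in the second of RT1-Db1. In both, replicate 1 was highest and replicate 2 lowest, as in the first RT1-Ba probe set.

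The pair that loads peptide was measured by 1 probe set each. RT1-DMb, the beta chain of the pair, had signals of 5828, 6125 and 5594, with a mean of 5849 ± 266 and an SD of 0.07 log2 units, the smallest of the 14 probe sets. RT1-DMa, its alpha chain, had signals of 1362, 1835 and 1600, with a mean of 1599 ± 236. Both stood above the cutoff on every array, RT1-DMb by at least 14.4-fold and RT1-DMa by at least 3.37-fold. RT1-DMa was the 1 member whose call was lost under a stricter cutoff, the 99th percentile of the same genes.

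Ciita, the transactivator of the set, had low signals with both probe sets. The probe set 1379381_at gave 244, 285 and 271, and 1369214_a_at gave 178, 89.1 and 112. All 6 values lay below the cutoff of their array, the former at about the middle of all probe sets (percentile 49.2 to 50.3). The mean log2 signal of 1379381_at was 0.50 below the cutoff. Ciita was called under a looser cutoff (90th percentile) and under the lowest one, the brightest probe set of the TrpnX control on each array (40.7 to 63.5). Its level relative to background is therefore a matter of the cutoff, and a gene that is not called may be expressed below what the cutoff can show.

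**Figure D2:**
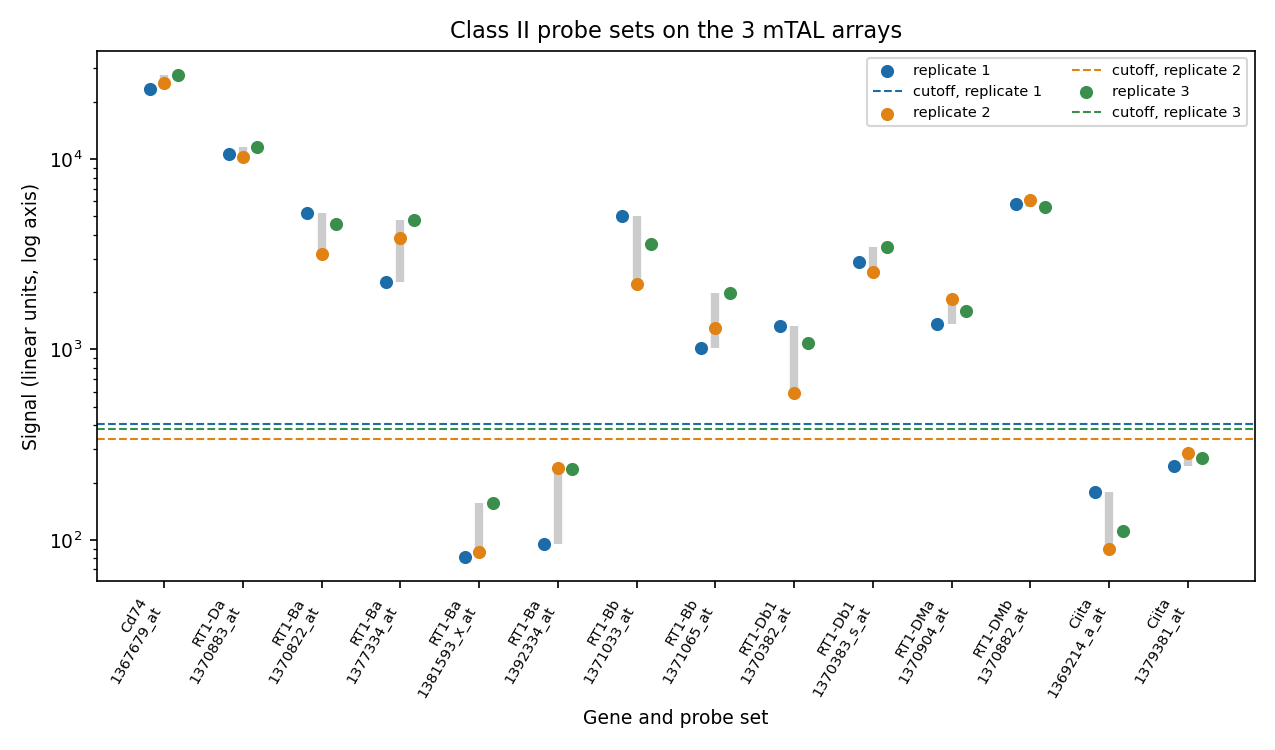
Signal of the 14 class II probe sets on replicates 1 (blue), 2 (orange) and 3 (green), on a log axis; grey bars span the 3 arrays and dashed lines mark each array's cutoff. Cd74 lies between 23219 and 27671, 10 probe sets lie above all cutoffs, and the 2 of Ciita and 2 of the 4 of RT1-Ba lie below them.

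The probe sets of one gene parted between arrays to an unequal degree. For RT1-Bb the difference between replicates 2 and 1 was 1.53 log2 units apart between its 2 bright probe sets, for RT1-Ba 1.48 and for RT1-Db1 0.99. Over 1622 genes with at least 2 probe sets above the cutoff on every array, the largest such disagreement had a median of 0.51. It was as large as in RT1-Bb in 1.17% of these genes, as in RT1-Ba in 1.42% and as in RT1-Db1 in 11.7%. The pattern over arrays of these 3 genes therefore depended on which probe set was read. Values per gene, such as list medians, sums and likeness, read 1 probe set for each gene, the brightest on average in log2. The SD over arrays of the 10 bright class II probe sets had a median of 0.29 log2 units, against 0.15 over all called genes. These are unlike measures, since the latter reads only the brightest probe set of each gene. Read that way, the SDs of the 7 called members ran from 0.07 (RT1-DMb) to 0.60 (RT1-Bb).

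The factors that bind class II promoters were called in 6 of 7 cases, beside 53.7% of all genes. The RFX complex, which holds the X box, had signals of 1660 ± 138 for Rfx5 (limma adjusted p = 0.000443) and 650 ± 120 for Rfxap (adjusted p = 0.00736). Rfxank, the remaining RFX subunit, was not called, with signals of 332, 324 and 434 and only replicate 3 above its cutoff. The NF-Y subunits, which hold the Y box and many other promoters, had signals of 7550 ± 868 for Nfyc, 1576 ± 126 for Nfya and 1554 ± 125 for Nfyb. Creb1, which binds beside the X box, had 1514 ± 174. Under the stricter cutoff (99th percentile) 1 of the 7 was called, beside 3778 of all 14217 genes.

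Of the genes through which interferon-gamma acts, 5 of 9 were called, a share near the 53.7% of all genes. The receptor chains Ifngr1 (1990 ± 255) and Ifngr2 (1437 ± 466) and the kinase Jak1 (9029 ± 638) were among them, as were the transcription factors Irf1 and Irf2 (1374 ± 353). Interferon-gamma itself, the gene Ifng, had signals of 2.59, 2.55 and 43.6, far below the cutoff on every array. The feedback inhibitor Socs1 (29.4, 157 and 161), Irf8 (114, 218 and 118) and Jak2 (393 ± 80) were not called. Irf1, which relays the interferon signal and also responds early to other stress signals, had 4465, 8649 and 17765 on replicates 1, 2 and 3. It was thus 3.98 times as high on replicate 3 as on replicate 1, while Cd74 was 1.19 times as high. The count of this list was 2 under the stricter cutoff and 8 under the TrpnX cutoff. Of all 14217 genes, 3778 and 11138 were called there.

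Of the proteases and other proteins that cut the invariant chain and the antigens in the endosome, 8 of 11 were called. Among all genes the share was 53.7%. Cathepsin L (Ctsl), which performs the last cuts of the invariant chain in thymic epithelium, had signals of 15976, 27899 and 22179. Cathepsin S (Ctss), which does so in dendritic and B cells, had 178, 208 and 224, below the cutoff on every array. Cathepsins B (Ctsb, 17790 ± 324), D (Ctsd, 11313 ± 1381) and H (Ctsh, 6727 ± 1034), the asparaginyl endopeptidase Lgmn (3265 ± 1122) and the inhibitor of cathepsins Cst3 (15758 ± 1120) were called. So were the thiol reductase Ifi30 (7724 ± 440), which unfolds antigens by opening their disulfide bonds, and Sppl2a (2888 ± 431), which clears the last fragment of the invariant chain from the membrane. Ctsz (409 ± 34) and Ctsf (418 ± 99) lay above the cutoff on 2 of the 3 arrays and were not called. Most of these proteins work in the lysosomes of all cells, so their signals are not particular to class II presentation. Only Ctsl and Ctss are described here by cell type, and which cells gave the signals of this list was not tested. The median of the list lay 4.62 ± 0.27 log2 units above the array median.

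Of the ubiquitin ligases that remove class II molecules from the surface, Marchf8, present in many cell types, was called (2675 ± 168). Marchf1, which is known from dendritic and B cells, had signals of 6.66, 6.90 and 9.23 and was not. Cd74 at the surface also serves as a receptor for the cytokine MIF, and the ligands Mif (12499 ± 1236) and Ddt (11529 ± 414) were both called. The co-receptors Cd44 (288 ± 61), Cxcr4 (295 ± 112) and Cxcr2 (7.24 ± 2.69) were not. Of 6 co-stimulatory genes, whose products give T cells the second signal, 1 was called, beside 53.7% of all genes. This was the adhesion gene Icam1 (1430, 2548 and 3855). Without replicate 1 the count was 2. Cd83 was not called (542 ± 206), and Icoslg (160 ± 147), Cd86 (93.5 ± 83.8), Cd40 (64.9 ± 73.0) and Cd80 (44.7 ± 45.5) lay below the cutoff on every array.

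Of the class I pathway, which presents peptides made in the cytosol, 14 of 23 genes were called, also near the 53.7% of all genes. B2m, the light chain of class I molecules (22564 ± 6405), the proteasome activator subunit Psme1 (18459 ± 1040) and the chaperone gene Pdia3 (11202 ± 1702) had the highest signals. The peptide pump subunit Tap1 (572, 1255 and 1247) and the immunoproteasome subunits Psmb9 (852 ± 233) and Psmb10 (788 ± 81) were called, and Tap2 (520 ± 265) and Psmb8 (445 ± 141) were not. RT1-A3 (170 ± 13) and Nlrc5 (126 ± 16), the transactivator of class I genes, had the lowest signals of those measured and were not called. RT1-A3 was read here by a probe set that names it alone. A probe set that names both RT1-A3 and RT1-A2 is not part of the list. Its signals were 1878, 8689 and 7190 on replicates 1, 2 and 3, above the cutoff on every array. It was picked out with its values known, and which of these genes it reads was not tested. Like Ciita, Nlrc5 lay below the cutoff on all 3 arrays. The count of the list was 6 under the stricter cutoff and 23 under the TrpnX cutoff, by which 3778 and 11138 of all 14217 genes were called.

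**Figure D3:**
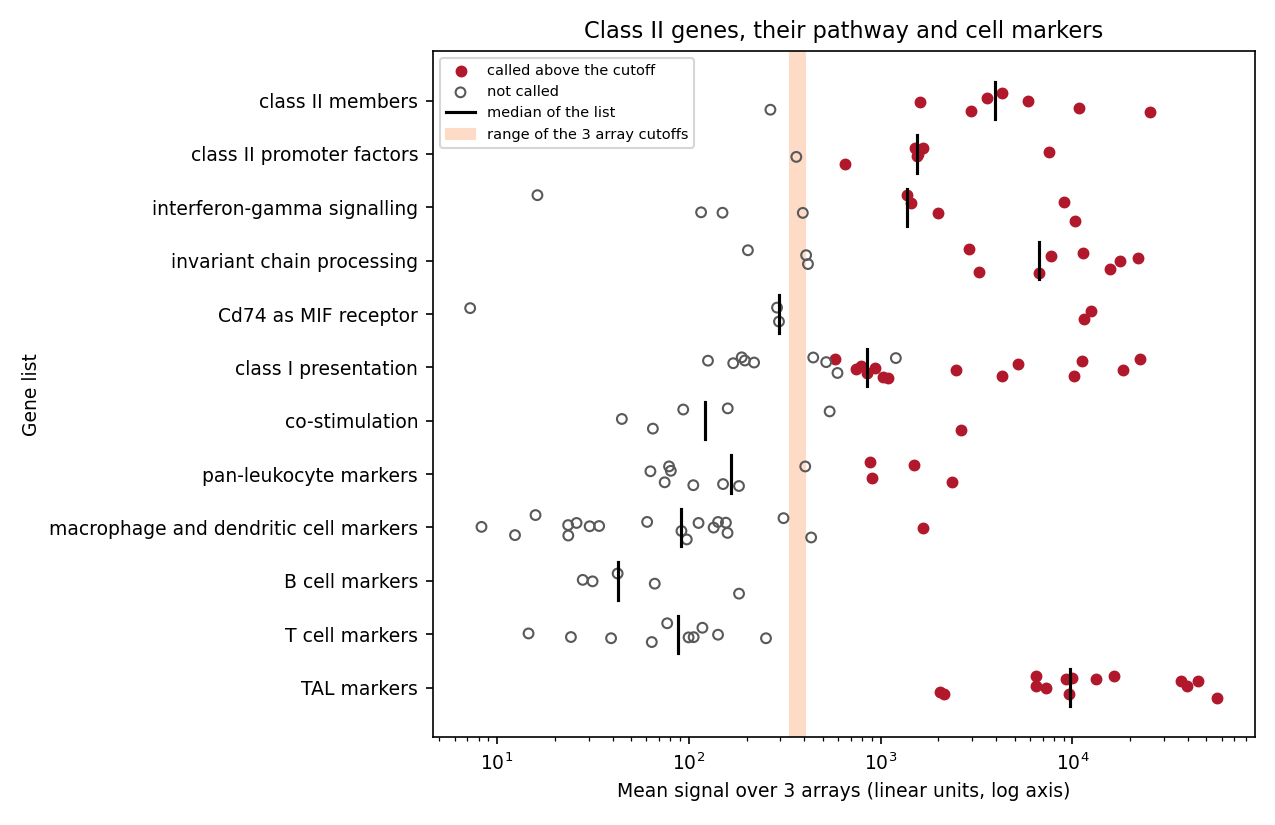
Mean signal over 3 arrays of each measured gene, on a log axis, by list; filled points were called above the cutoff, open points were not, vertical ticks mark the median of a list and the shaded band spans the cutoffs of the 3 arrays (338 to 404). Filled are 7 of 8 class II members, 5 of the 46 leukocyte genes in 4 lists and 14 of 14 thick ascending limb markers. Of all genes 53.7% were called. The group was chosen with the signals of Cd74 and leukocyte markers known, so these counts are a description.

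Leukocytes were looked for by 4 lists of markers, of whose 46 measured genes 5 were called, or 10.9%, beside 53.7% of all genes. T cells, which have a list of their own here, are not among the cells named above as expressing class II constantly. The pooled share is therefore not that of class II-bearing cells alone. In the list for leukocytes of any kind, 4 of 12 were called. These were Cd48 (1932, 2426 and 2737), Arhgdib (716, 2281 and 1464), Fcer1g (575, 989 and 1138) and Laptm5 (821, 1176 and 655). In that for macrophages and dendritic cells 1 of 19 was called, the lysozyme gene Lyz2 (785, 2264 and 1934). Of 5 B cell and 10 T cell markers limma called 0, also at an unadjusted p under 0.05, and none of these 15 lay above the cutoff on any array. These counts are a matter of the cutoff too. Under the TrpnX cutoff, by which 11138 of all 14217 genes were called, they were 8 of 12 for leukocytes of any kind and 10 of 19 for macrophages and dendritic cells. There they were 1 of 5 for B cells, namely Cd22, and 3 of 10 for T cells, namely Cd3g, Lck and Zap70. Cd22 and the last 3 were picked out with their values known. Under the stricter cutoff, by which 3778 of all genes were called, the 4 lists had 1, 0, 0 and 0 called genes.

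The defining genes of these cells lay low. Ptprc, the common leukocyte antigen CD45, had signals of 64.5, 55.4 and 122, and Coro1a, an actin regulator of leukocytes, 17.0, 63.4 and 109. The macrophage genes Cd68 (170, 154 and 153) and Itgax (16.5, 6.64 and 47.2) were below the cutoff on every array, and Csf1r (202, 329 and 404) was above it on replicate 3 only. The B cell gene Ms4a1 had 70.4, 7.34 and 6.17, and the T cell gene Cd3e 50.8, 68.7 and 72.7. No signal of the arrays was exactly 0. The count for leukocytes of any kind was 2 without replicate 2 and 2 without replicate 3, and that for macrophages and dendritic cells was 2 without replicate 1 and 0 without replicate 2. In a bulk sample, fewer cells of a type and less RNA per cell cannot be told apart, and the part of such cells in the class II signals was not tested beyond these values.

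Differences between the 3 preparations were read with each array centred on its median probe set, and since an array is a single preparation there is no test. Over the 14 class II probe sets, replicate 3 minus replicate 1 had a median of 0.13 log2 units, with 9 of 14 higher on replicate 3. For replicate 2 minus replicate 1 it was -0.08, with 5 of 14 higher, and 0.05 after quantile normalization, so that its sign has no meaning. Single probe sets went both ways, from -0.73 to 1.24 for the former difference and from -1.35 to 1.16 for the latter, so a median near 0 does not mean that they were steady. The medians over all probe sets were -0.10 and -0.16.

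The proximal tubule returns most of the filtered load. All 20 of its measured markers were higher on replicate 3 than on replicate 1, by a median of 3.92 log2 units, and their summed signal was 16042, 56383 and 96498 on replicates 1, 2 and 3. The summed signal of the 8 class II genes, with 1 probe set each, was 54419, 51590 and 58275, with Cd74 as its largest part. It reads 1370822_at for RT1-Ba and 1371033_at for RT1-Bb, both highest on replicate 1. Their other bright probe sets, 1377334_at and 1371065_at, were lowest on replicate 1, and that of RT1-Db1, 1370382_at, was highest there. The order of the sums therefore depends on the probe sets read. Of the endothelial markers 8 of 10 were called, beside 53.7% of all genes, among them Pecam1 (800, 1484 and 1351). The highest were Esam (5938 ± 727), Plvap (4582 ± 1135), Emcn (4368 ± 1649) and Tek (2402 ± 979). Against replicate 1, endothelial markers were higher by a median of 0.87 log2 units on replicate 2 and 0.80 on replicate 3. Their summed signals were 16099, 27702 and 24859. The 46 leukocyte genes had summed signals of 8259, 13737 and 12803, so that the lowest sum was that of replicate 1, and fibroblast and mural cell markers had 3022, 6401 and 6874. The part of these cells in the class II signals was not tested.

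**Figure D4:**
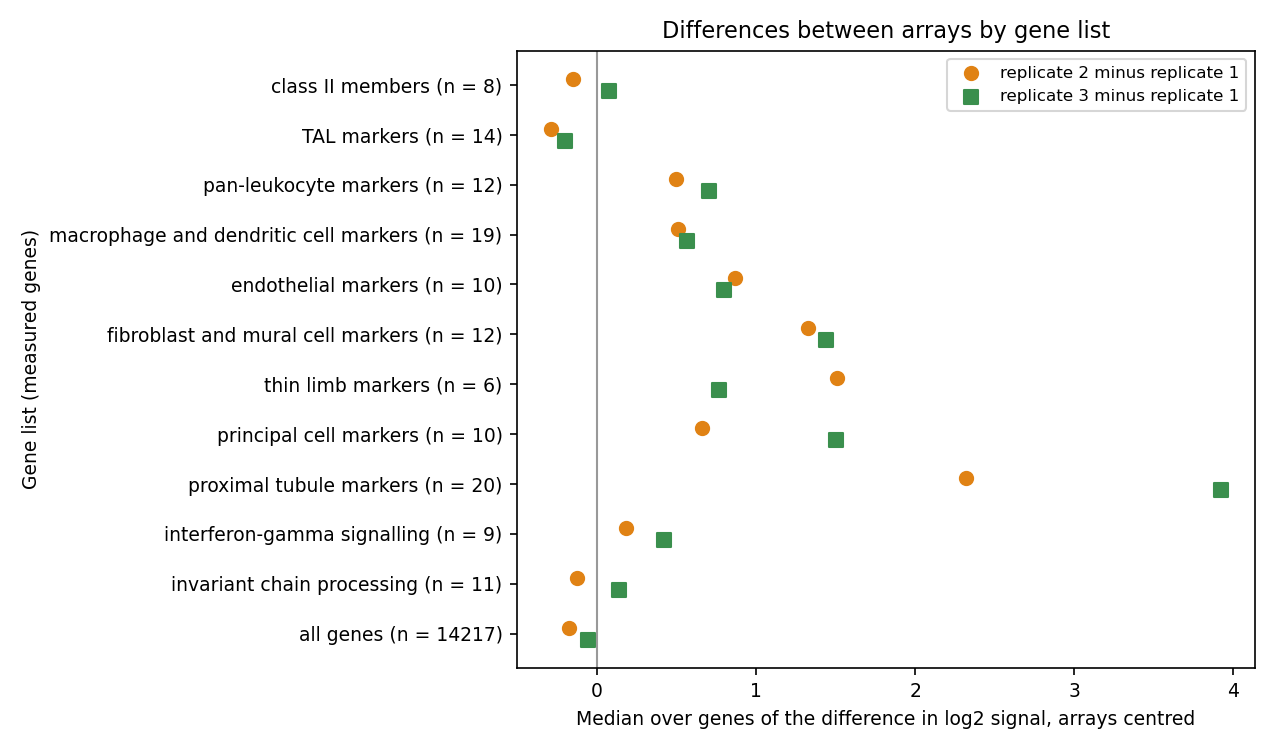
Median over the genes of each list of the difference in centred log2 signal between arrays, replicate 2 minus replicate 1 as orange circles and replicate 3 minus replicate 1 as green squares; the vertical line marks 0. The class II members lie at -0.15 and 0.07, near all genes (-0.17 and -0.06), while proximal tubule markers lie at 2.32 and 3.92. Each gene is read by 1 probe set, on which the class II values depend.

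The genes whose profile over the 3 arrays was nearest to that of Cd74 were Parp12, Ppard, Impa2, Asrgl1 and Tpst2. The root mean square difference of their centred log2 profiles from that of Cd74 was 0.0025 for Parp12 and 0.0059 for Tpst2. Parp12, for one, had signals of 860, 927 and 1021. Profiles this flat are common, since 1581 of 8471 genes with a mean above the cutoff, or 18.7%, lay within 0.1 of Cd74. With 3 arrays the order among them has little meaning. Of the class II genes, RT1-Da was nearest, at 0.0716 and rank 789. The distances of RT1-Ba, RT1-Bb and RT1-Db1 depend on the probe set read and are not ranked.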

How the data were processed

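For each array the authors deposited linear intensity values, 1 for every probe set. How probes were summarised, with which software, and how arrays were scaled is not given in the sources used here. Values ran from 0.217 to 94710, 0 of them at or below 0, so log2 was taken with no pseudocount. Of 31099 probe sets 57 were controls, 20826 had 1 gene in the platform annotation, 436 several and 9780 none. Where several probe sets named a gene, the one brightest on average in log2 stood for it. The gene IDs of all 8 members were found in the RefSeq table, with unchanged symbols.

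The promoters and the gene order are RefSeq's, build GRCr8.

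Calls came from limma 3.58.1 (R 4.3.3; lmFit and eBayes on log2 signal minus the cutoff, one-sided above 0), with Benjamini-Hochberg adjustment over all 14217 genes. The fit was tested on simulated data. The number of arrays limits the precision.

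The members, gene lists and the other-tissue genes were chosen with earlier results of these data known. Myh1 was left out of the latter for that reason and added as an alternative. List entries without a matching gene are not analysed here, and Aqp1 stands in the lists of both proximal tubule and thin limb. The text names all member probe sets, genes of the pathway lists (including the 3 highest and 2 lowest of each larger list), at most 4 called genes per marker list with the defining markers, and the 5 genes nearest to Cd74. Hsd17b7 and Tdo2 were named after their promoters were searched.

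Alternatives were other scalings (quantile, common 75th percentile), a pseudocount of 16, cutoffs at the 90th and 99th percentile or at TrpnX, Myh1 in the list, dim genes left out, probe set means, calls without a test, and leaving out each array.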

Additional observations from a re-analysis of the deposited data

How the results depend on the processing

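Of 309 recomputed values 268 stayed within 1.5 times the count, or within 1 SD of the value, first given. The count of class II members stayed at 7 in most settings, including each omission of 1 array. It was 6 under the stricter cutoff (99th percentile), without RT1-DMa, and 8 with the cutoff at the 90th percentile or at TrpnX, with Ciita. Of the counts that answer a comparison, 3 moved by more than 1.5 times. Under the stricter cutoff 3778 genes were called and 20 genes of the pathway lists, against 7631 and 37, and with that at TrpnX 57 genes of the pathway lists. The cutoff's own construction accounts for these. The counts of single lists moved in 38 further cases. Among them, 11 proximal tubule markers were called without replicate 1, against 4, and 2 principal cell markers without replicate 2, against 5. Of the fibroblast and mural cell markers 2 were called, 5 without replicate 1, and 1 without replicate 2 or without replicate 3. Without 1 array the genes called in all were 7202 to 7556, and those of the pathway lists 34 to 38. The mean signals of the members moved in 0 cases. With 1 of 3 arrays left out this was fixed in advance, since a mean cannot then shift by 1 SD. Only the other scalings could have moved these means. Counting probe sets that name several class II genes could not change the count of members either, as there were 0. The 268 values include these cases, so that number does not measure stability. A common 75th percentile leaves every call as it was, since the cutoff is set on each array. Which of the other-tissue genes lie near the 95th percentile decides the cutoff, and with Myh1 among them 6945 genes were called. No depth is known for array signals, and 3 arrays limit what the fit can call near the cutoff.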

Other observations

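The heavy chains of class I molecules are encoded in the same RT1 complex as the class II chains. Of 26 other RT1 probe sets, 6 of which name several genes, 11 stood above the cutoff on every array. Among all probe sets of a single gene the share was 48.0%. Of these 11, 6 had their highest signal on replicate 2, while 4 had it on replicate 3 and 1 on replicate 1. Of the 10 class II probe sets above the cutoff on every array, 2 had it on replicate 2, while 5 had it on replicate 3 and the other 3 on replicate 1. The difference between these counts was not tested, and probe sets of one gene are not independent. Which array was highest was not counted over all probe sets, so these counts have no share to stand beside. The class I gene RT1-S3 was measured by 4 probe sets, and all were highest on replicate 2. The brightest of them gave 596, 1640 and 1040 on replicates 1, 2 and 3. RT1-T24-3 gave 440, 1928 and 1234, and B2m, the light chain that all class I heavy chains share, 16056, 28861 and 22775. RT1-CE10, RT1-CE12 and RT1-CE16 were lowest on replicate 2, as were 5 of the 10 class II probe sets, and RT1-CE12 gave 2295, 2039 and 3313. The signals of RT1-S3, RT1-T24-3 and B2m were lowest on replicate 1. So were the summed signals of the endothelial, thin limb, principal cell, proximal tubule, and fibroblast and mural cell markers. The 46 leukocyte genes also had their lowest sum there. Among them, B cell markers summed to 500, 189 and 364 on replicates 1, 2 and 3. T cell markers had their lowest sum on replicate 3. The part of any of these cells in the class I signals was not tested. The RT1-CE genes and the counts over arrays were picked out after the values were seen.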
